A study of Rattus norvegicus with 6 samples.

Results

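Circular RNAs (circRNAs) of 9 axon guidance receptor genes were examined in white matter of rats with cerebral palsy and of healthy control rats. The genes were Epha5, Epha6, Epha7, Ephb1, Robo1, Robo2, Dcc, Unc5c and Unc5d, and every circRNA that the deposited table assigns to one of them was taken by its host-gene name. The genes themselves were chosen with earlier results of these data known. This gave 48 of the 11123 circRNAs listed, of which 43 had at least 1 read, out of 8635 with a read in all. The 5 without a read belonged to Epha5 (2), Epha6, Dcc and Unc5c. There were 3 libraries per group, called control rats 1 to 3 and model rats 1 to 3 here. The labels call them replicate biosamples and do not say whether each came from a single rat. Both groups share the tissue, which the labels give as white matter, and a digestion with RNase R, an exonuclease that removes linear RNA. The rats' strain, age and sex go unstated in the sources used here, as does the way cerebral palsy was produced, so the limits of the model cannot be described.

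Growing axons are steered by receptors that read cues on other cells or in the matrix around them. Eph receptors are tyrosine kinases that bind membrane-anchored ephrins on neighbouring cells, and contact often turns the growth cone away. Robo receptors are immunoglobulin superfamily proteins that bind secreted Slit proteins and mostly mediate repulsion, while Dcc binds netrin and mostly mediates attraction, and the Unc5 receptors bind netrin and mediate repulsion. These systems pattern the commissures and long tracts that later become white matter, and many of them remain expressed in mature neurons and glia. A circRNA forms when a downstream splice donor is joined back to an upstream acceptor, so reads across this back-splice junction count the circle and not the receptor mRNA. A junction is a single point, so its reads do not scale with the length of the circle.

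Depth was low, at 4750 to 6793 junction reads per library (19004 in controls and 16268 in model rats). A count of 0 in 1 library therefore allows up to 3 reads, or 0.0442% to 0.0632% of its junction reads, by counting error. PCR reads without molecular identifiers are not independent molecules, so such limits cover counting error only. Junctions on the Y chromosome had 2, 9 and 2 reads in control rats 1 to 3 and 0 in each model rat. Since the labels do not give sex, a sex difference and the model cannot be told apart in any result that follows. Of hosts that mark myelinating oligodendrocytes, 10 of 18 gave circRNAs, and these took 0.294% to 0.439% of reads in controls and 0.0859% to 0.295% in model rats. Mog, Mag, Cnp, Ermn, Mal, Cldn11, Aspa and Gjb1 were at 0. Neuron marker hosts, of which 9 of 16 had reads, took a larger share than the oligodendrocyte hosts in every library. Their share was 0.589% to 0.877% in controls and 0.379% to 1.03% in model rats. A gene can be transcribed and give no circle, so host genes check the tissue label only weakly.

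Most receptors gave several different circles, and many of these were flanked by long introns. Of the 48 entries, 47 were exonic circRNAs and 1 was a ciRNA, a circle made of intron. No listed circRNA of another host gene overlapped these loci. Among the 42 exonic circRNAs with reads, the number of exons ran from 1 to 12 with a median of 4, which is also the median of all 7461 detected exonic circRNAs. The span on the genome had a median of 27148 bp against 12651 bp over all. The shorter of the 2 introns that flank a circle had a median of 12524 bp (quartiles 5970 and 27368 bp), against 4489 bp (1827 and 10680 bp) over the 7447 exonic circRNAs with both introns listed. That shorter intron lay above the median of all circRNAs in 33 of the 42 (78.6%). Circles of 1 gene share its introns, so the 42 are not independent, and no test was made of this difference. The longest shorter flank was that of Robo1 circRNA2515, which had 1 read and introns of 426068 bp upstream and 172745 bp downstream.

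**Figure D1:**
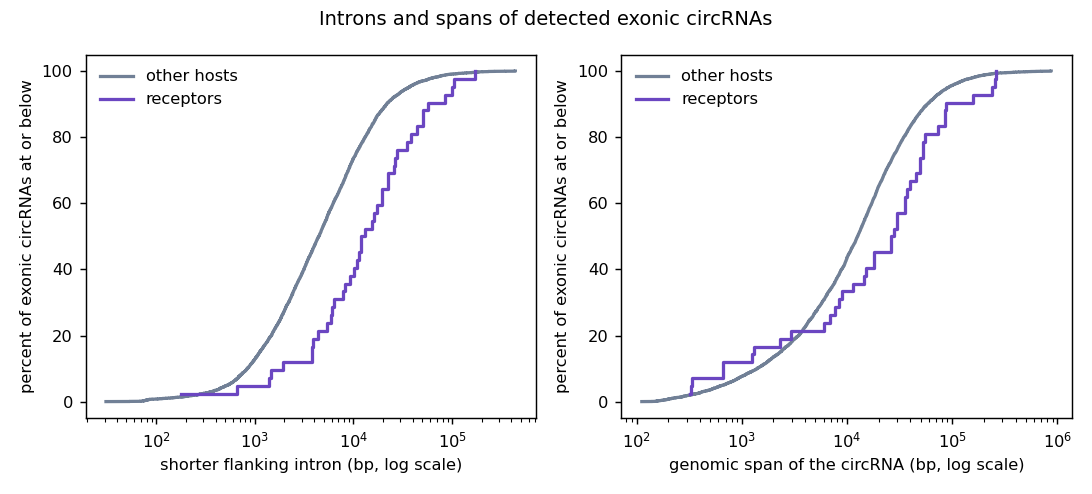
Cumulative share of detected exonic circRNAs by the length of the shorter flanking intron (left) and by genomic span (right), both on log axes in bp, for the receptors (purple) and all other hosts (grey). The receptor curve lies to the right of the other hosts for introns (medians 12524 bp for receptors and 4489 bp over all hosts) and for most of the range of spans (27148 and 12651 bp).

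A pair of receptor genes shared an exon circle of the same size. In Epha5 and in Epha6, which encode closely related A-class Eph receptors, a single exon of 664 bp was circularised on its own. Of the 446 single-exon circRNAs in the table, these were the only 2 of that length. Both exons also carried the most upstream back-splice acceptor seen in their gene. The Epha6 exon (circRNA196, mRatBN7.2 chromosome 11, 39922668 to 39923331, plus strand) had introns of 104653 bp upstream and 211379 bp downstream. The Epha5 exon (circRNA653, chromosome 14, 23735490 to 23736153, plus strand) had introns of 50158 and 118441 bp. The next exon marked by listed splice sites was 156 bp in both genes, at 23854595 to 23854750 in Epha5 and at 40134711 to 40134866 in Epha6. Further single-exon circles came from Epha6 (336 bp), Robo2 (327 bp) and Dcc (321 bp). Single-exon circles made up 5 of 42 detected exonic receptor circRNAs (11.9%) and 5.04% of all.

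Splice sites were often reused within a receptor gene. Of 40 exonic circRNAs in receptors with 3 to 10 of them, 25 (62.5%) shared an acceptor or a donor with another circle of the same gene. Over all 813 hosts with as many circles the share was 70.3%, somewhat above that in receptors, with no test of the difference. In Epha5, 6 of 10 circles shared a site, with 3 starting at the acceptor at 23921975 and 2 at 23854595. In Ephb1 all 5 circles shared a site with another. Unc5c and Unc5d each used 1 acceptor for 2 of their 3 circles. The Dcc circles lay over 656 kb, with 4 of 7 sharing an acceptor and none sharing a donor.

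**Figure D2:**
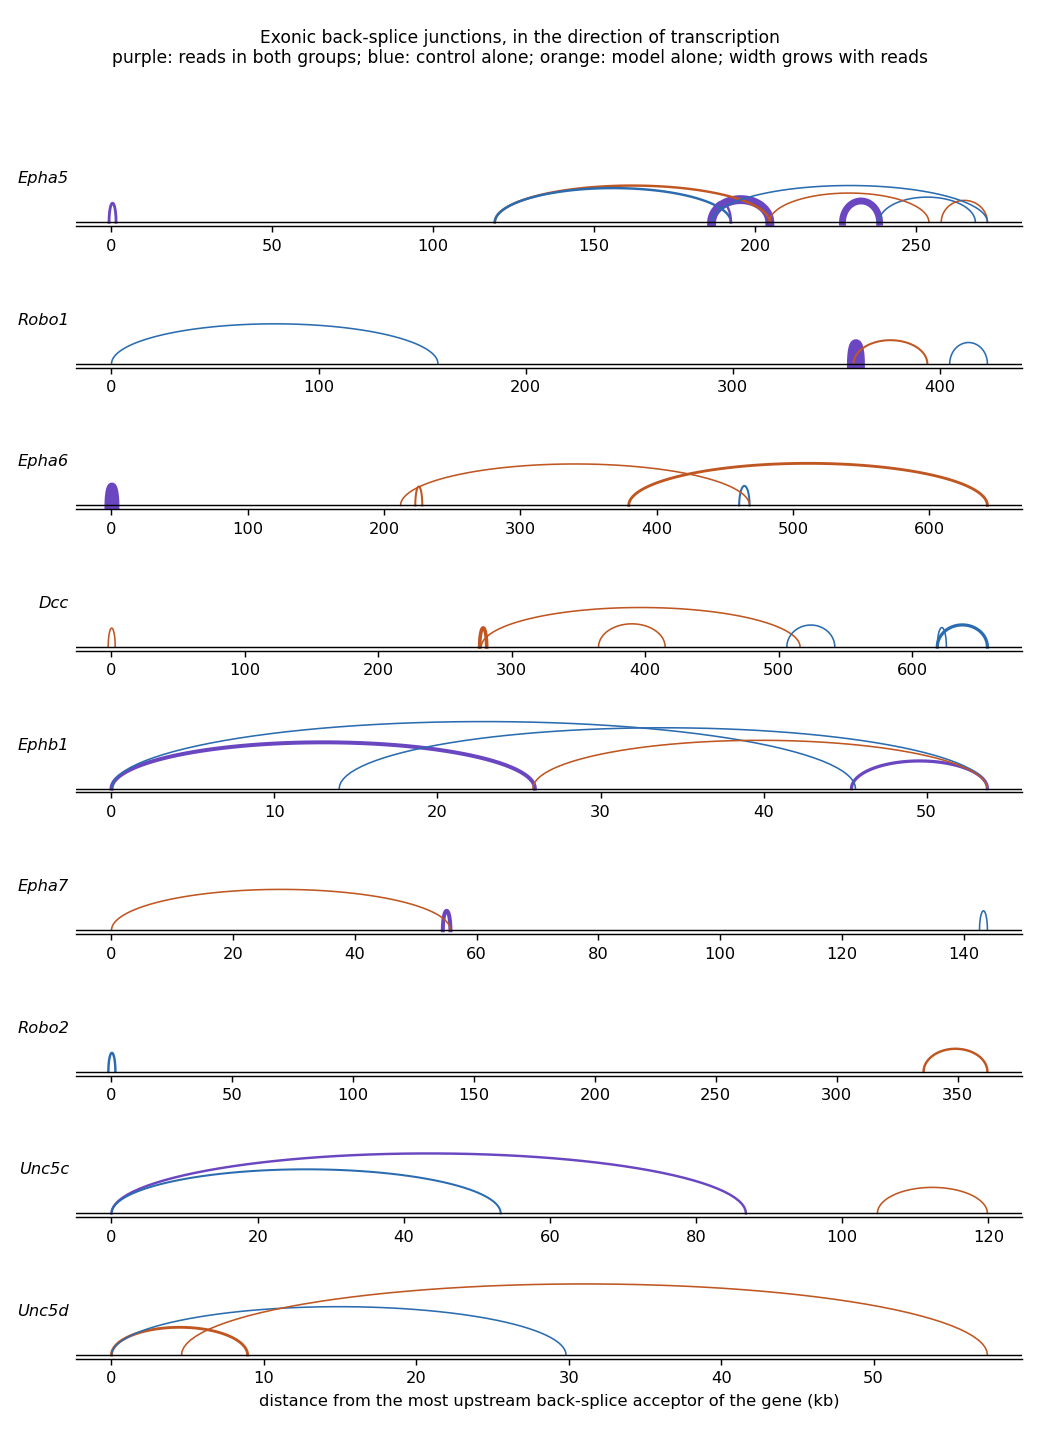
Back-splice junctions of the 42 detected exonic circRNAs, 1 panel per gene, drawn as arcs from acceptor to donor against distance in kb from the gene's most upstream acceptor, in the direction of transcription. Line width grows with reads, colour shows the group that holds the reads, arc height grows with span, and very short circles are drawn at a minimum width. The thickest arcs are Robo1 circRNA168, Epha5 circRNA655 and Epha6 circRNA196 (spans of 2314, 18060 and 664 bp), and many other arcs, short and long, rest on few reads.

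The receptors together held 170 junction reads, and most of their circles were rare. Of the 43 detected, 21 rested on a single read (48.8%, against 52.3% of all detected circRNAs), and 7 had at least 6 reads (16.3%, against 11.9%). Reads per detected circRNA were 3.95 for receptors and 4.08 over all. Of the 43, 1 circle, Epha5 circRNA655, had reads in each of the 6 libraries, against 238 of all 8635 detected circRNAs. By host gene, reads summed over circles were highest for Epha5 (53 reads, 10 circles), followed by Robo1 (31 reads, 4 circles), Epha6 (27 reads, 5 circles) and Dcc (16 reads, 7 circles). Ephb1 (15 reads), Epha7 (9), Robo2 (7), Unc5c (6) and Unc5d (6) followed. As a level, Epha5 stood at 1.46 ± 1.01 reads per 1000 junction reads of a library and Unc5d at 0.173 ± 0.219 (SD, n = 6 libraries). Between neighbours in this order the mean difference was smaller than its SD over the 6 libraries in all 8 pairs. Epha5 lay above Robo1 in 4 libraries and below it in 2, and Epha6 lay above Dcc in 5.

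The design asks whether these circles differ between model and control white matter. Epha6 circRNAs were the only receptor sum with every model library above every control library, and Epha7 the only one with every model library below, on the scale of reads per 1000. Neither passed the test across all hosts, and no other receptor did. Summed over its circles, Epha6 had 3, 2 and 3 reads in the control rats and 8, 7 and 4 in the model rats. This was 0.422 ± 0.0955 and 1.18 ± 0.42 reads per 1000 (SD, n = 3). Epha7 had 2, 3 and 2 reads in the control rats and 1, 0 and 1 in the model rats, or 0.37 ± 0.0956 and 0.116 ± 0.1 reads per 1000 (SD, n = 3). Groups did not overlap in these 2 of 9 receptors, and in 10.7% of all hosts tested. All Epha7 counts and all Epha6 control counts were at most 3 reads, the limit that a count of 0 allows. Astrocyte marker hosts, of which 5 of 10 had reads and Aqp4, Slc1a3, Gja1 and Aldh1l1 were among those at 0, took 0.422% to 0.515% of reads in controls and 0.258% to 0.421% in model rats. Their part in the receptor values, and that of the oligodendrocyte hosts, was not tested. In white matter RNA as a whole, fewer cells of a type and less circRNA per cell cannot be told apart.

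Host sums were compared with edgeR's quasi-likelihood test over the 1117 hosts with at least 6 reads in all, which included all 9 receptors. At a Benjamini-Hochberg adjusted p of 0.05, 0 of the 9 receptors passed, while 0.269% of all hosts tested did. At an unadjusted p of 0.05 it was again 0 of 9, against 5.55% of all hosts tested, and DESeq2 called 0 of 9 after adjustment. Every receptor had the same edgeR adjusted p, 0.981. The log2 fold change, model over control, was positive in 6 receptors and negative in 3 (median 0.22). Over all hosts tested 569 were positive and 548 negative (median 0.046). The intervals were wide. For Epha6 the log2 fold was 1.40 ± 0.85 (SE), a 2.64-fold difference, with a 95% interval from -0.26 to 3.07. For Epha7 it was -1.50 ± 1.54, from -4.52 to 1.52. With single libraries left out, the Epha6 log2 fold ranged from 1.21 to 1.63 and the Epha7 log2 fold from -1.84 to -1.06.

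**Figure D3:**
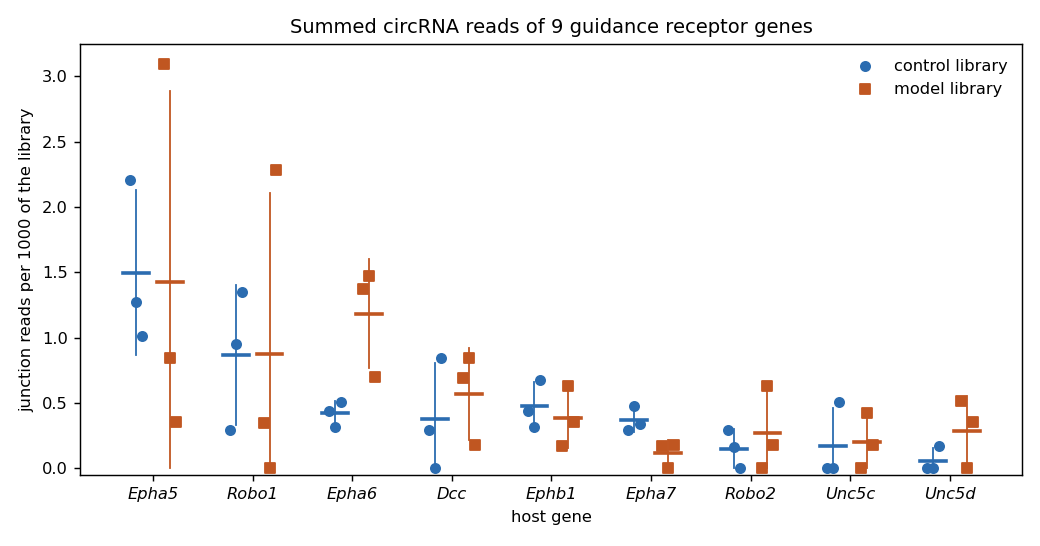
Junction reads per 1000 of the library, summed over the circRNAs of each receptor gene, for the 3 control libraries (blue circles) and the 3 model libraries (orange squares). Horizontal bars are group means and vertical lines the SD, not drawn below 0. Groups are separate for Epha6 (means 0.422 and 1.18) and Epha7 (0.37 and 0.116) and overlap for the other 7 genes. All Epha7 counts and all Epha6 control counts are at most 3 reads, the limit that a count of 0 allows.

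Among the Eph receptors, Epha5 gave the most reads, and its lowest and highest library were both in the model group. Reads were 15, 8 and 6 in the control rats and 18, 4 and 2 in the model rats. Model rat 1 was the highest and model rat 3 the lowest, so all control values lay inside the range of the model group. The log2 fold was -0.11 ± 0.62 (SE, 95% interval -1.32 to 1.10), and it was -1.36 without model rat 1 and 0.36 without model rat 3. The neuron marker hosts also varied between these libraries. They took 0.765%, 0.589% and 0.877% of reads in the control rats and 1.03%, 0.379% and 0.527% in the model rats, with 9 of 16 hosts detected and Nefl, Nefm, Stmn2, Grin1, Grin2b, Camk2a and Celf4 at 0. Their part in the Epha5 values was not tested.

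Of 53 Epha5 reads, 36 came from a pair of neighbouring circles. The 3-exon circRNA655 (chromosome 14, 23921975 to 23940034) had 5, 2 and 4 reads in the control rats and 6, 3 and 1 in the model rats. The 4-exon circRNA658, separated from it by 1 intron (23962643 to 23974150), had 3, 5 and 0 reads in the control rats and 6, 0 and 1 in the model rats. Both circles were high in model rat 1, and circRNA658 was absent from 1 library of each group. Their log2 folds were -0.05 ± 1.03 and -0.1 ± 1.23 (SE, edgeR adjusted p = 0.98 for both), and the signs of both turned with another scaling. The 664 bp exon circle of Epha5 had 3 reads in control rat 1 and 1 in model rat 2. Another pair starts at the acceptor of the 156 bp exon. Of these, circRNA654 had 2 and 1 reads in control rats 1 and 2, and circRNA5224, which ends at the donor of circRNA655, had 3 in model rat 1.

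In Epha6 the 664 bp exon circle, circRNA196, carried 18 of 27 reads. Control rats held 3, 0 and 3 of its reads against 3, 7 and 2 in model rats, so the groups overlapped for this circle alone. Its log2 fold was 1.05 ± 1.11 (SE, edgeR adjusted p = 0.98), or 0.43 without model rat 2 and 1.52 without control rat 1. The other Epha6 circles had 2 reads in controls, both from circRNA2530 in control rat 2, and 7 in model rats. Of these, circRNA5019, a 9-exon circle with a span of 263166 bp (chromosome 11, 40302110 to 40565275), had 2 reads in model rats 1 and 3 each and 0 elsewhere. Its level over the model group was 1.56-fold the limit of 3 reads over the control group. This ratio leaves out the counting error of the model reads, so it is no lower bound and no test, and it needs both libraries. The non-overlap of the Epha6 sum was thus made up of several circles and was not seen for its main one.

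Epha7 and Ephb1 gave fewer reads. The 2-exon Epha7 circRNA1300 (chromosome 5, 43034071 to 43035315, plus strand) had 1, 3 and 2 reads in the control rats and 0, 0 and 1 in the model rats. The lowest control and the highest model library each held 1 read, and the log2 fold was -2.14 ± 1.97 (SE, edgeR adjusted p = 0.98). It was -4.05 without model rat 3, which held the only model read, and -1.61 without model rat 1. Ephb1, a B-class Eph receptor, had 3, 2 and 4 reads in the control rats and 1, 3 and 2 in the model rats, with a log2 fold of -0.34 ± 1.15 (SE). These reads fell mainly on a pair of circles. The 5-exon circRNA2387 (chromosome 8, 102577569 to 102603544, minus strand) had 1, 2 and 0 reads in the control rats and 0, 3 and 1 in the model rats, a log2 fold of 0.49 ± 1.83 (SE, edgeR adjusted p = 0.98). Ephb1 circRNA4925, separated from it by 1 intron, had 4 reads in control rat 3 and 1 in model rat 3, too few to be tested.

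**Figure D4:**
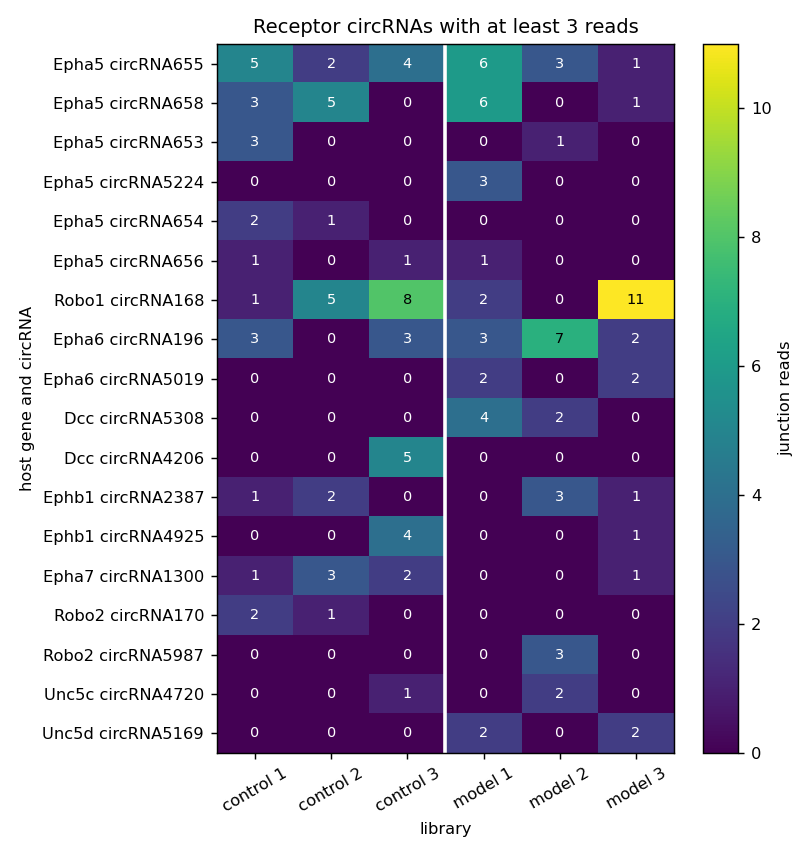
Junction reads in each library for the 18 receptor circRNAs with at least 3 reads, ordered by host gene, with control rats to the left of the white line and model rats to the right. The highest cell is Robo1 circRNA168 in model rat 3 (11 reads), and of the 18 only Epha5 circRNA655 has a read in every library.

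The Robo receptors differed in how their reads were spread. Robo1 and Robo2 lie on the same chromosome on opposite strands. In Robo1, the 3-exon circRNA168 (chromosome 11, 11496482 to 11498795, plus strand) held 27 of 31 reads (87.1%), the most of any receptor circle. Control and model values were mixed, at 1, 5 and 8 in the control rats and 2, 0 and 11 in the model rats. The highest and the lowest library were thus both in the model group, and the log2 fold was -0.03 ± 0.93 (SE, edgeR adjusted p = 0.98). The Robo1 sum had a log2 fold of 0.06 ± 0.77 (SE, 95% interval -1.45 to 1.58) and was -2.15 without model rat 3. A longer circle from the same acceptor, Robo1 circRNA6691, had 2 reads, both in model rat 3. Robo2 had 2, 1 and 0 reads in the control rats and 0, 3 and 1 in the model rats, from different circles, with a log2 fold of 0.63 ± 1.62 (SE). Its 327 bp exon circle circRNA170 (12980993 to 12981319, minus strand) had 2 and 1 reads in control rats 1 and 2, and the 4-exon circRNA5987 (12618956 to 12645367) had 3 reads in model rat 2.

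Netrin receptors had the fewest reads per circle of the 3 families, with 28 reads over 13 detected circles. The Dcc sum was 2, 0 and 5 reads in the control rats and 4, 4 and 1 in the model rats, a log2 fold of 0.55 ± 1.10 (SE), and groups overlapped. It was 0.015 without control rat 2 and 1.70 without control rat 3. No Dcc circle had reads in both groups, but 5 of the 7 had a single read and so could not, and over all detected circRNAs 21.7% had reads in both. The 2-exon Dcc circRNA5308 (chromosome 18, 65293488 to 65296426, minus strand) had 4 and 2 reads in model rats 1 and 2 and 0 in every other library. Its level over the model group was 2.34-fold the limit of 3 reads over the control group. This ratio leaves out the counting error of the model reads and is no lower bound. The circle did not pass the test (edgeR adjusted p = 0.69). Its fitted 95% interval, from -0.18 to 8.43 on the log2 scale, depends on the prior count and includes 0. Model rat 1 held 4 of the 6 reads, and the 2 reads left without it are below the limit of 3. The circle entered the test through its model reads alone, and model rat 3 had none. The 5-exon Dcc circRNA4206 (64917078 to 64954639) had all of its 5 reads in control rat 3. Its level over the control group was 1.43-fold the limit of 3 reads over the model group, which rests on that 1 library. Control rats 1 and 2 had 0 reads, as did every model rat, so no difference between groups is shown. The remaining 5 Dcc circles had 1 read each, 2 of them in control rat 1.

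Unc5c and Unc5d each had 6 reads. The Unc5c sum was 0, 0 and 3 reads in the control rats and 0, 2 and 1 in the model rats, with a log2 fold of 0.22 ± 1.69 (SE). Its 6-exon circRNA4720 (chromosome 2, 230384178 to 230470999, plus strand) had 1 read in control rat 3 and 2 in model rat 2. The Unc5d sum was 0, 0 and 1 reads in the control rats and 3, 0 and 2 in the model rats. Its log2 fold was 2.07 ± 1.77 (SE, 95% interval -1.40 to 5.55), and groups overlapped because model rat 2 had no read. Without model rat 1 it was 1.48, and without control rat 3, which held the only control read, 3.87. Unc5d circRNA5169, a 3-exon circle (chromosome 16, 63329516 to 63338446, plus strand), had 2 reads in model rats 1 and 3 each and 0 in controls. Its level over the model group was 1.56-fold the limit of 3 reads over the control group, and this needs both libraries. The counting error of its own reads is left out, so the ratio is no lower bound. With 6 reads a gene, differences of several fold in either direction lay inside the intervals.

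**Figure D5:**
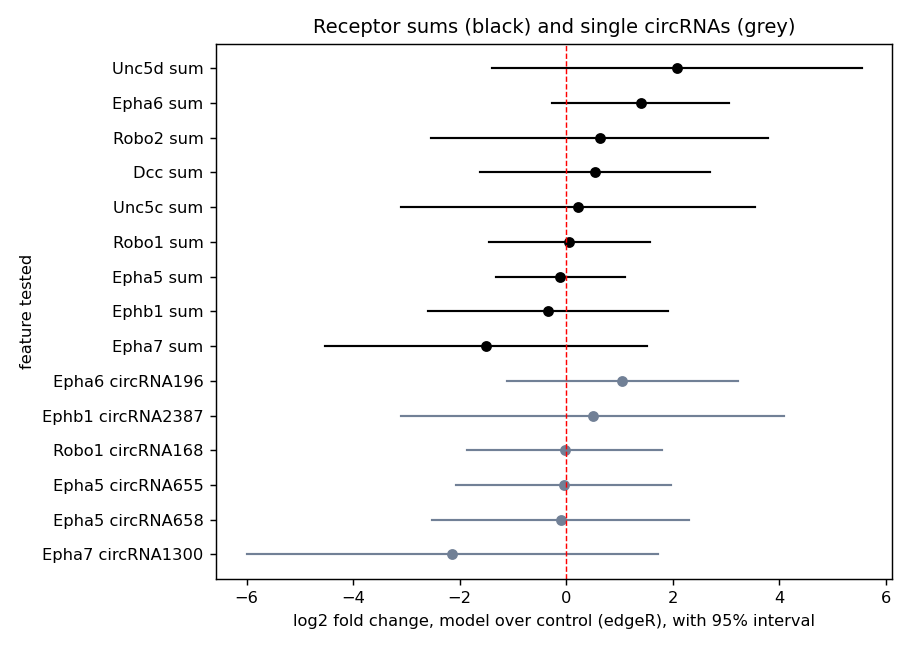
Log2 fold change, model over control, from edgeR (points) with 95% intervals (lines) for the 9 receptor sums (black) and for 6 of the 7 single circRNAs tested (grey); Dcc circRNA5308 is left out because it had no control read. Every interval includes 0, and those of Unc5d and Unc5c are the widest among the sums.

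Single circRNAs were tested in the same way over the 1029 with at least 6 reads, which held 7 receptor circles. Of these, 0 passed an edgeR adjusted p of 0.05, against 0.194% of all circRNAs tested. At an unadjusted p of 0.05 it was 0 of 7, against 5.05%, and DESeq2 called 0 of 7 after adjustment. Groups overlapped in all 7, whereas 10% of all circRNAs tested had groups that did not. In the authors' deposited table, 0 of the 48 receptor entries are marked as changed, against 0.315% of all entries, those without a read included. The lowest q-value over all entries there is 0.309, so no mark passes an adjusted threshold of 0.05. The lowest p-value for a receptor circle in the authors' deposited table is 0.147, for Dcc circRNA5308.

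As a share of all junction reads, the 9 receptors took 0.427%, 0.35% and 0.54% in the control rats and 0.636%, 0.484% and 0.474% in the model rats. The group means were 0.439% ± 0.0956 and 0.531% ± 0.0905 (SD, n = 3), and the groups overlapped. The difference of 0.0923 percentage points was 0.0401 without model rat 1 and 0.143 without control rat 3. Model rat 1 was highest, and 18 of its 37 receptor reads came from Epha5. By family, Eph receptors held 53 reads in controls and 51 in model rats, Robo receptors 19 and 19, and netrin receptors 11 and 17. The number of distinct receptor circles was 17, 9 and 11 in the control rats and 16, 9 and 13 in the model rats. At an equal depth of 4750 reads it was 13.2, 8.1 and 10.1 against 14.35, 9 and 12.1. Of the 43 detected circles, 10 had reads in both groups (23.3%), 15 in controls alone (34.9%) and 18 in model rats alone (41.9%). Over all detected circRNAs these shares were 21.7%, 42.6% and 35.7%. The 21 circles with a single read could appear in 1 group only, whatever their level in the other.

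The deposited table places all 9 receptors in its axon guidance pathway, where they held 33.5% of the 507 reads of the 68 hosts with that annotation and a read. A separate list of 126 other genes of the pathway was set beside them. Of these, 52 gave any circRNA, 14 had enough reads for the test, and 0 rose and 0 fell at an edgeR adjusted p of 0.05. At an unadjusted p of 0.05 it was 2 of 14, Plxna2 and Chn1, against 5.55% of all hosts tested, and both entered the test through model reads alone. Ligand genes were nearly silent as circles. Ephrins gave 1 read (Efnb2), and the Slit, netrin, RGM, draxin and FLRT genes gave 6, among them 2 each from Slit1 and Slit3. Semaphorins gave 13, among them 6 from Sema5a and 2 each from Sema3c and Sema7a. The other Eph receptors gave 9 reads, with 5 from Epha4 and 2 each from Epha3 and Ephb2.

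More reads came from other receptors of adhesion type and from signalling genes. Dscaml1 had 3, 7 and 12 reads in the control rats and 5, 2 and 5 in the model rats. Dscam, which encodes an adhesion protein that can act as a netrin receptor, had 5, 1 and 8 against 9, 4 and 6. Groups overlapped for both. Plexins and neuropilins, the semaphorin receptors, gave 19 reads. Plxna4 had 3, 0 and 1 reads in the control rats and 3, 2 and 0 in the model rats, and Plxna2 had 0 in the control rats and 0, 4 and 2 in the model rats. Downstream, Ptk2, the focal adhesion kinase gene, had 15, 10 and 5 reads against 3, 8 and 11 (log2 fold -0.22 ± 0.62, SE). Cdc42, a small GTPase gene, had 2, 4 and 0 against 1, 0 and 4. Of the exchange factor genes, Kalrn had 2, 7 and 5 against 7, 1 and 0, and Dock1 had 1, 5 and 3 against 0, 2 and 0. Chn1 had 0 in each control rat against 3, 3 and 1, and Sos2 had 0, 0 and 2 against 2, 3 and 2. As reads per 1000, every model library was above every control library for both, which were named after their values were seen. Groups overlapped in the rest of the 14 pathway genes tested, and did not overlap in 10.7% of all hosts tested. Chn1 entered the test through model reads alone, so its separation is no support for a difference. Rhoa went the other way, with 1, 1 and 3 reads in the control rats and 0 in each model rat, too few to be tested.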

How the data were processed

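Back-splice junction reads were analysed from the authors' deposited table of circRNAs, with 1 column per library. Per the file headers it holds raw counts and a normalised signal named SRPBM, deposited by the authors, which here served only to derive the divisors used as alternative library sizes. It also holds the authors' log2 fold changes and p-values and q-values, made with a test that the sources used here do not name. Deposited exon numbers, as well as flanking introns, described the circles. The aligner and circRNA caller are likewise not given in the sources used here. Positions are 1-based on mRatBN7.2, a build named per the submitters' processing notes. In all 9462 exonic entries with both introns listed, the left intron ended 1 base before the start. All 9 symbols matched RefSeq.

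The main test was edgeR 4.0.16 (R 4.3.3, quasi-likelihood, TMM scaling, full library totals) on host sums and on single circRNAs, with at least 6 reads over the 6 libraries, a filter blind to group, and Benjamini-Hochberg adjustment over all features tested. Each SE is the size of the log2 fold over the square root of F. DESeq2 1.42.0, other scalings, filters of 10 reads, none and edgeR's default, exonic circRNAs only, a block for the replicate number, and fits without each library in turn were alternatives. Scripts were tested on simulated data. Exons were read as stretches of at most 700 bp between listed introns. Members, lists and the 6-read filter were chosen with earlier results of these data known. The labels call the samples replicate biosamples, 3 per group, and do not say whether each came from a single rat. P-values measure the spread between these biosamples, but edgeR estimated that spread almost wholly from all features tested together. A receptor's own spread between biosamples therefore had little weight in its edgeR p, SE or interval. Named circRNAs are those with at least 6 reads and the most abundant of each receptor; named pathway genes are those past the threshold and the 2 with most reads in each role. Others were named after their values were seen.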

Additional observations from a re-analysis of the deposited data

How the results depend on the processing

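No receptor sum and no receptor circRNA passed an adjusted p of 0.05 under any alternative in which it could be tested; with edgeR's default filter none could be. The number of hosts called over the whole table was 3 (2 or 3 with other scalings, filters and tools, and 0 to 3 with 1 library left out, with 0 without control rat 2, model rat 2 or model rat 3). For single circRNAs it was 2, but 0 with DESeq2 size factors, in DESeq2, at 10 reads and with no filter. With 1 library left out it was 0 to 4, with 0 without control rat 1, control rat 3 or model rat 3, 1 without control rat 2 or model rat 2, and 4 without model rat 1. The authors' divisors moved the median log2 fold of all hosts from 0.046 to -0.13, and DESeq2 size factors that of all circRNAs from -0.061 to 0.11. Folds near 0 turned in sign. Epha5 circRNA655 became 0.12 with DESeq2 size factors, 0.085 with library totals, 0.13 in DESeq2, 0.025 at 10 reads and 0.0061 with exonic circRNAs alone. Epha5 circRNA658 became 0.056 with DESeq2 size factors and 0.056 in DESeq2. Robo1 circRNA168 became 0.065, 0.036, 0.052 and 0.014 with DESeq2 size factors, library totals, DESeq2 and 10 reads. With the authors' divisors the Robo1 sum became -0.13 and the Unc5c sum -0.017. With 1 library left out the folds ranged from -0.58 to 0.37 for Epha5 circRNA655, -1.97 to 0.70 for circRNA658, -1.36 to 0.36 for the Epha5 sum, -0.73 to 1.42 for Ephb1 circRNA2387 and -0.87 to 0.017 for the Ephb1 sum. They ranged from -2.03 to 0.62 for Robo1 circRNA168, -2.15 to 0.54 for the Robo1 sum, -0.76 to 1.43 for Robo2 and -0.81 to 3.29 for Unc5c. Others kept their sign, with ranges from 0.015 to 1.70 for Dcc, 1.48 to 3.87 for Unc5d, 0.43 to 1.52 for Epha6 circRNA196 and -4.05 to -1.61 for Epha7 circRNA1300. The model minus control difference in distinct receptor circles, 0.333, ranged from -1.33 to 2.67. The cause was not tested.

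Same-numbered libraries showed no joint deviation (correlations of deviations from -0.067 to -0.033 over hosts). With few reads per host and 3 libraries per group, this check cannot exclude that they share more than a number. With the replicate block, 3 hosts and 2 circRNAs were called, none of them a receptor, and the Robo1 sum became -0.37. Depth limits these results, since receptor sums rested on 6 to 53 reads.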

Other observations

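The one intron-derived circle of a receptor gene came from Robo2. This ciRNA (ciRNA979, chromosome 11, 12784813 to 12980992, minus strand) had 1 read, in model rat 3, and its first base in the direction of transcription directly follows the 327 bp exon that forms circRNA170.

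Across the 6 libraries, the hosts whose log2 CPM values ran most like those of the summed receptors were Nav3, a neuron navigator gene, Mtmr7 and Fut8, out of 100 other hosts with at least 60 reads. Pearson correlations were 0.857, 0.748 and 0.746 over 6 libraries. They are the highest of 100 and share the libraries and their depth, so they are given as a description. Nav3 had 15, 1 and 12 reads in controls and 22, 9 and 9 in model rats.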
